A study of Mus musculus with 3 samples.

Results

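Genes of the Wnt, BMP, FGF, IGF and PDGF signalling families were looked up among the RUNX3-FLAG binding windows of superficial zone (SFZ) chondrocytes, the cells of the articular cartilage layer next to the joint surface. Members were all genes listed beside a window whose symbol belonged to a Wnt or frizzled (Fzd), a BMP, GDF or BMP receptor, an FGF or FGF receptor, an insulin-like growth factor (IGF), its receptors or binding proteins, or a PDGF or PDGF receptor. This held for 11 of the 1966 genes listed, and they lay beside 14 of the 1000 windows. The list holds only the best-ranked part of the peaks that the study called, so every count and distance below is for that part. Chromatin immunoprecipitation sequencing (ChIP-seq) had been performed on cells of neonatal wild-type C57BL/6 mice, all of which had received by lipofection a vector for 3xFLAG-tagged Runx3, so that the bound protein was the transfected one and no library came from cells without it. There were 3 libraries, 1 for each group: a pulldown with the FLAG antibody M2 (RUNX3-FLAG), a pulldown with anti-mouse IgG (IgG), and input, for which no antibody was used. With 1 library a group there was no replicate error and no test between conditions, and sequencing depth is unknown. The values are positions and ranks of windows, so they give no level of any gene, and the cell type could not be checked against the level of its markers.

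Wnt ligands signal through frizzled receptors, of which many activate β-catenin, whereas BMPs and GDFs bind pairs of serine/threonine kinase receptors that phosphorylate Smad proteins. Most FGFs, as well as IGFs and PDGFs, bind receptor tyrosine kinases, and IGF binding proteins hold IGFs in the extracellular fluid. All of these families are known for roles in skeletal growth or joint tissue: GDF5 and GDF6 in joint formation, IGF-1 in the synthesis of cartilage matrix, and FGF receptors in the growth plate. Runx3 is a transcription factor that binds DNA through its Runt domain.

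The FGF family held most of the windows. Of 96 annotated family genes, 11 had a window, which is 11.5% (Wilson 95% confidence interval 6.52-19.4%). Among all annotated protein-coding genes, 7.98% were listed beside a window, and this share lies inside that interval. The FGF family had 5 of 26 genes with 8 windows (Fgf2, Fgf3, Fgf5, Fgf7 and Fgfr2), the BMP family 3 of 24 genes with 4 windows (Bmp3, Bmp6 and Gdf6), the Wnt family 2 of 29 genes with 2 windows (Wnt3 and Fzd1), the IGF family 1 of 11 genes with 1 window (Igf1r), and the PDGF family none of 6 genes. By role, 8 of 68 ligands, 3 of 21 receptors and 0 of 7 IGF binding proteins had a window. The ligands were counted by symbol alone, so genes that do not act as ligands are included, for example Bmp1, which is a procollagen proteinase. One window was listed beside a pair of members, Fgf5 and Bmp3, so there were 15 gene-window pairs. Fgf7 had 3 windows and Fgfr2 and Gdf6 had 2 each. Thus 3 of 11 members had 2 or more windows (27.3%, 9.75-56.6%), beside 14.8% of all listed genes, and 1 had 3 or more, beside 3.2% of all listed genes.

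The following 9 windows, each a centre base with 50 bp to either side, carry the results on position and motif. All are given for mm9, on the plus strand, with the rank in the peak list counted from the best. Ranks 25, 199 and 247 were the best among the members. Ranks 304, 501, 731 and 932, like rank 247, had a member's transcription start site (TSS) as the nearest of any listed gene. Ranks 583 and 879 are shown with rank 932 because they held a Runx and an AP-1 match together. The windows after the first 3 were chosen after their values were seen. Capitals mark matches to the Runx motif (TGNGGN on either strand, where each N is C or T, so that TGTGGT on the minus strand reads ACCACA) and to the AP-1 motif TGANTCA.

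Fgf7, rank 25, chr2:125755811-125755911: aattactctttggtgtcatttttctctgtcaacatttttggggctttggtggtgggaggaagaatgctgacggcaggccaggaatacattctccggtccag
Fgf3, rank 199, chr7:151798877-151798977: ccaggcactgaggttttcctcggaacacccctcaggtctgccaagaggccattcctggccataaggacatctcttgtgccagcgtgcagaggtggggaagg
Fgf7, rank 247, chr2:125774126-125774226: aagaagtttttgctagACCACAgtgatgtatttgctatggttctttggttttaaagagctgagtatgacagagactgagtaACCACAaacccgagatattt
Fgfr2, rank 304, chr7:137252217-137252317: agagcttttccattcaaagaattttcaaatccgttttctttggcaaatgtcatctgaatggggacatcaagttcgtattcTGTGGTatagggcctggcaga
Fgf2, rank 501, chr3:37269597-37269697: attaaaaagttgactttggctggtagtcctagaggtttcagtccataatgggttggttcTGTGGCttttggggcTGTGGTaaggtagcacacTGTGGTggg
Igf1r, rank 583, chr7:74899493-74899593: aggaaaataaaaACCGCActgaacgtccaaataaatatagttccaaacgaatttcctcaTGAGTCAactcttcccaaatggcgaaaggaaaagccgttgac
Fgfr2, rank 731, chr7:137359203-137359303: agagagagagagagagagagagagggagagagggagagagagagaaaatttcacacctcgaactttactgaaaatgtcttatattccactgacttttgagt
Fzd1, rank 879, chr5:5320884-5320984: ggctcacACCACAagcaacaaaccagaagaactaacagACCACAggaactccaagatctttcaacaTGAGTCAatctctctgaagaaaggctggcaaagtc
Bmp6, rank 932, chr13:38412311-38412411: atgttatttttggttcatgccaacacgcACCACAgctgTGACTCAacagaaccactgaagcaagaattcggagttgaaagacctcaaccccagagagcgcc

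Among the FGF ligands, Fgf7 (gene ID 14178), a growth factor made by mesenchymal cells that acts on epithelial cells, had the best-ranked window and the most windows. Its rank 25 window lay 105 kb upstream of the Fgf7 TSS and its rank 247 window 86.3 kb upstream. Both were inside introns of Galk2, the neighbouring gene, namely intron 6 of 9 and intron 8 of 9, and they were 18.3 kb apart. For rank 25 the Galk2 TSS was nearer (70.9 kb), whereas for rank 247 the Fgf7 TSS was the nearest of any listed gene although the deposited nearest gene was Galk2. The third window, rank 408 (chr2:125977924-125978024), lay on the other side of Fgf7, 117 kb downstream of its TSS, outside RefSeq genes and 2.30 kb from the TSS of Dtwd1. Only the rank 247 window of these 3 held the Runx motif.

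Fgf2 (14173), basic FGF, a ligand stored in the matrix around chondrocytes, had 1 window in its own gene. The rank 501 window lay in intron 1 of 2, 22.1 kb downstream of the TSS, which was the shortest distance of all 15 pairs. To the nearest annotated start of a coding Fgf2 transcript, another one than the RefSeq TSS, the distance was 10.03 kb. It held 3 Runx matches, all on the plus strand and all in the right part of the window (centred 11.5, 26.5 and 44.5 bp from the window centre). The bases between neighbouring matches numbered 9 and 12. Of all windows, 2.8% held 3 or more matches.

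Fgf3 (14174), a ligand of ear development, and Fgf5 (14176), a ligand that ends the growth phase of hair, had 1 distant window each. The Fgf3 window, rank 199, lay 226 kb upstream of its TSS in intron 15 of 24 of Tmem16a, 30.6 kb from the TSS of Fadd, and held no Runx match. The Fgf5 window, rank 903 (chr5:98758465-98758565), lay 75.3 kb downstream of the Fgf5 TSS, and Fgf5 was its deposited nearest gene. The same window was 525 kb upstream of Bmp3 and only 192 bp from the TSS of 1700007G11Rik, inside intron 1 of 5 of that gene. It held 1 Runx match, and its GC content was 72.3%.

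Fgfr2 (14183), a tyrosine kinase receptor whose splice forms differ in the FGFs they bind, was the only FGF receptor listed beside a window. Both of its windows had Fgfr2 as nearest TSS and as deposited nearest gene. The rank 731 window lay in intron 6 of 17, 51.1 kb downstream of the TSS and 46.1 kb from the nearest annotated start of a coding Fgfr2 transcript. It held no Runx match and opened with a run of 48 purines, a length reached by 2 of the 1000 windows (0.2%), whereas the next longest such run in a member window was 11 bases. How well reads map to such a run was not tested. The rank 304 window lay 158 kb downstream of the TSS and 53.7 kb beyond the end of the gene, in no gene, with 1 Runx match 32.5 bp from its centre.

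Among the BMP ligands, Bmp6 (12161), made by prehypertrophic chondrocytes among other cells, had the nearest window. The rank 932 window lay 25.2 kb upstream of its TSS, which was the nearest of any listed gene, although 6530403A03Rik was deposited as the nearest gene. It held 1 Runx match and 1 AP-1 match with 4 bases between them. Bmp3 (110075), a BMP that counteracts bone-forming BMPs, had only the distant window it shared with Fgf5. Gdf6 (242316), a ligand of joint formation, had 2 windows, neither with a Runx match. The rank 718 window (chr4:9596325-9596425) lay 175 kb upstream of Gdf6 and 25.5 kb from the RefSeq TSS of Asph. It was outside RefSeq genes but inside Asph in the GENCODE annotation. The rank 913 window (chr4:10801152-10801252) lay 1029.7 kb downstream of Gdf6, 553 bp from the TSS of 2610301B20Rik. None of the 3 annotated BMP receptors that the symbol rule covers was listed beside a window.

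Of the Wnt family, Wnt3 (22415), a ligand needed for gastrulation, and Fzd1 (14362), a frizzled receptor, had 1 window each, and neither had the member as nearest gene. The Wnt3 window, rank 639 (chr11:103782120-103782220), lay 147 kb downstream of the Wnt3 TSS in intron 4 of 20 of Nsf, 33.2 kb from the TSS of Nsf. It held 1 Runx match, 22.5 bp from the centre, whose last base was also the first base of TCAGCACC. This stretch, followed after 2 bases by GGACAG, matches both parts of the motif of REST, a repressor of neuronal genes, and the pair was found in 1.4% of all windows. Which of these stretches is bound was not tested. The Fzd1 window, rank 879, lay 563 kb upstream in intron 2 of 14 of Pftk1, 59.3 kb from the TSS of that gene. It held 2 Runx matches and 1 AP-1 match, with 22 bases between the AP-1 match and the nearer Runx match.

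Igf1r (16001), the receptor through which IGF-1 acts on chondrocytes, was the only IGF family gene listed beside a window. The rank 583 window lay 198 kb upstream of the Igf1r TSS, in intron 1 of 3 of Dmn and 5.09 kb from the TSS of Dmn. It held 1 Runx match and 1 AP-1 match with 41 bases between them. Neither IGF ligand, none of the 7 IGF binding proteins and none of the PDGF ligands and receptors was listed beside a window. Windows listed beside other genes nevertheless lay nearer to Igfbp7 (106 kb, rank 60) and Igf2r (147 kb, rank 497), measured from annotated coding starts.

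**Figure D1:**
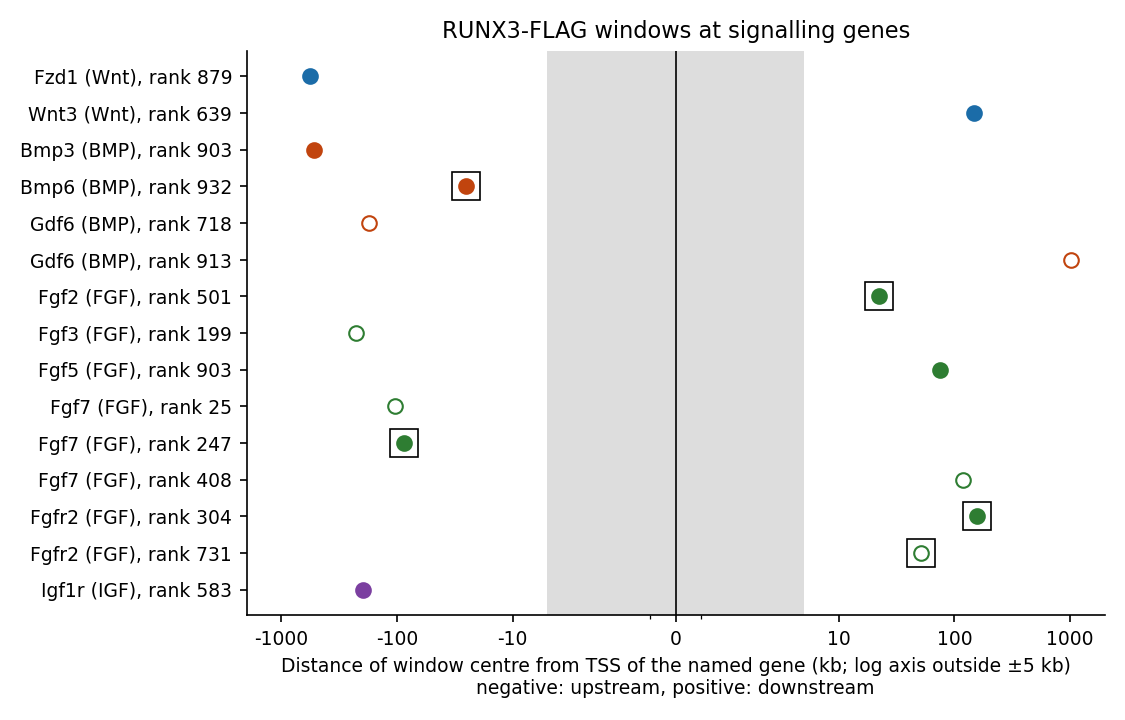
Distance in kb from the TSS of each member (y axis) to the centre of each of its windows (x axis), for the 15 gene-window pairs, negative upstream. Filled symbols hold the Runx motif, squares have the member's TSS as nearest, and the grey band is 5 kb to each side of the TSS. No symbol falls in the band, and the nearest is Fgf2 at 22.1 kb from its RefSeq TSS.

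No member had a window at its own promoter. None of the 11 had a window within 5 kb of its TSS (Wilson upper bound 25.9%), beside 20.5% of all listed genes. Among all 96 annotated family genes it was 0 as well, beside 2.21% of all annotated genes. Of the 15 pairs, 2 were at 5 to 50 kb, 10 at 50 to 500 kb and 3 beyond 500 kb. The median distance was 147 kb (22.1-1029.7 kb), beside 53.2 kb for the other gene-window pairs. Relative to the member, 8 windows lay upstream of the TSS, 5 downstream of the gene end and 2 in an intron of the member itself (Fgf2 and Fgfr2). A member's TSS was the nearest for 5 of 14 windows (those of Fgf7 at rank 247, both of Fgfr2, Fgf2 and Bmp6), and a member was the deposited nearest gene for 4 (both of Fgfr2, Fgf2 and Fgf5). For the remaining windows the member was only the next gene to one side, and which gene a window acts on was not measured.

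Against the other 986 windows, no tested share of the 14 windows differed past the threshold, by the two-sided Fisher's exact test with Benjamini-Hochberg adjustment over 4 shares. Within 5 kb of the TSS of any gene were 3 of 14 windows (21.4%, 7.57-47.6%) against 36.7% (33.8-39.8%), with an odds ratio of 0.470 (0.0837-1.80) and an exact p = 0.279 (adjusted 0.557). Inside a gene were 9 of 14 (64.3%, 38.8-83.7%) against 37.1% (34.2-40.2%), with an odds ratio of 3.05 (0.908-11.7) and an exact p = 0.0501 (adjusted 0.200). All 9 were intronic. This share counts listed RefSeq genes only. The windows at ranks 408 and 718 lay outside these but inside Dtwd1 and Asph in the GENCODE annotation. No share by GENCODE is given here. A window inside a gene was listed with that gene besides the next one on each side, so it named more genes than a window between genes, and the part of this in the share was not tested. Among the best-ranked 33.3% of the list were 4 of 14 (28.6%, 11.7-54.6%) against 33.4% (30.5-36.4%), with an odds ratio of 0.799 (0.182-2.80) and an exact p = 1. With 14 windows these intervals are wide, and a difference inside them was not detectable.

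**Figure D2:**
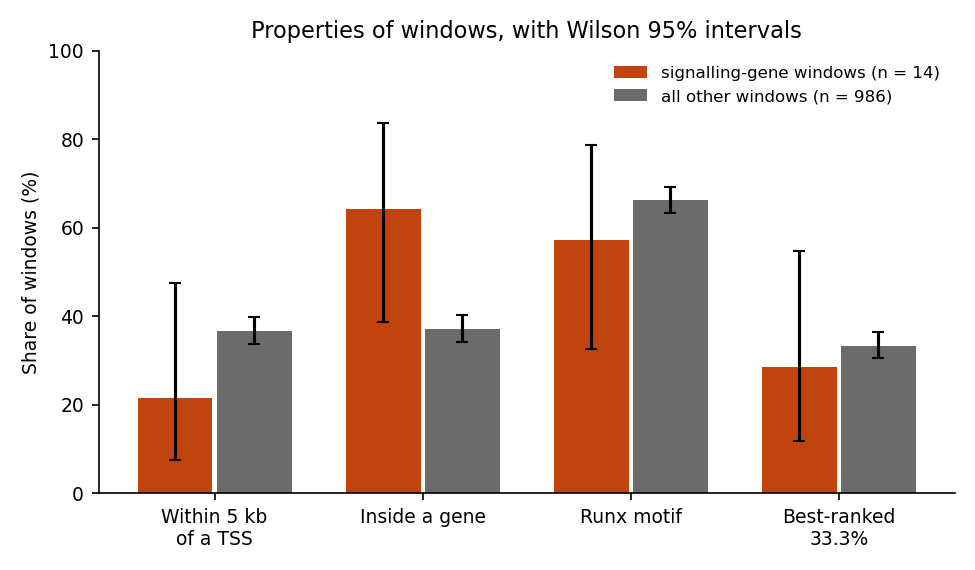
Share in percent (y axis) of the 14 member windows and of the other 986 windows that lay within 5 kb of a TSS, lay inside a listed RefSeq gene, held the Runx motif or were in the best-ranked 33.3%. Error bars are 95% confidence intervals by Wilson's method and show counting error alone. The largest gap is the share inside a gene, 64.3% of member windows beside 37.1%.

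The median rank of the member windows was 611 (25-932) against 498.5 for the others. The median distance to the nearest TSS of any gene was 28.0 kb (0.192-158 kb) against 18.7 kb. Within 500 bp of the TSS of a listed gene was 1 of 14 windows (7.14%, 1.27-31.5%), that of Fgf5 and Bmp3. Of the other windows it was 25.7%, which lies inside that interval, and the difference was not tested. The median GC content was 47.5% (37.6-73.3%) against 54.5%.

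The Runx motif was found in 8 of 14 windows, namely in at least 1 window of Fgf7, Fgfr2, Fgf2, Igf1r, Wnt3, Fzd1, Fgf5 with Bmp3, and Bmp6. This was 57.1% (32.6-78.6%), beside 66.1% of all 1000 windows. The other 986 windows had 66.2%, and the odds ratio was 0.680 (0.205-2.40) with an exact p = 0.571 (adjusted 0.761). In equally long stretches 500 bp away on either side, the motif was found beside 0 of the 14 windows on the left and 2 on the right (those of Fgfr2 at rank 304 and Igf1r), and beside 16.1% and 16% of all windows. By the exact McNemar test, 8 windows held the motif where the left flank did not and 0 the reverse (adjusted p = 0.0156). Against the right flank these numbers were 6 and 0 (same exact test, adjusted p = 0.0313). The study recovered this form of the motif from the centres of its top-ranked Runx3 peaks, which these windows appear to belong to. More matches in windows than in flanks were thus partly fixed in advance, so no conclusion on binding is drawn from this test. The 6 windows without a match were those of Fgf7 at ranks 25 and 408, Fgf3, Gdf6 (both) and Fgfr2 at rank 731. Of windows more than 5 kb from a TSS, 7 of 11 member windows (63.6%) and 71.7% of all such windows held the motif.

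The AP-1 motif, bound by Fos and Jun proteins, was found in 3 of 14 windows (21.4%, 7.57-47.6%), those of Igf1r, Fzd1 and Bmp6, beside 11.3% of all windows. In the flanks it was found in 0 of the 14 on either side, and in 3.1% and 2.5% of all windows. Each of the 3 windows also held the Runx motif, a combination found in 9.4% of all windows. The ETS motif CCGGAAG was found in 0 of 14 and in 5.3% of all windows. At least 2 Runx matches were found in 3 of 14 windows (Fgf7 at rank 247, Fgf2 and Fzd1), beside 19.6% of all. In the rank 247 window both matches were on the minus strand with 59 bases between them. A match is a stretch of letters and was not tested as a binding site.

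**Figure D3:**
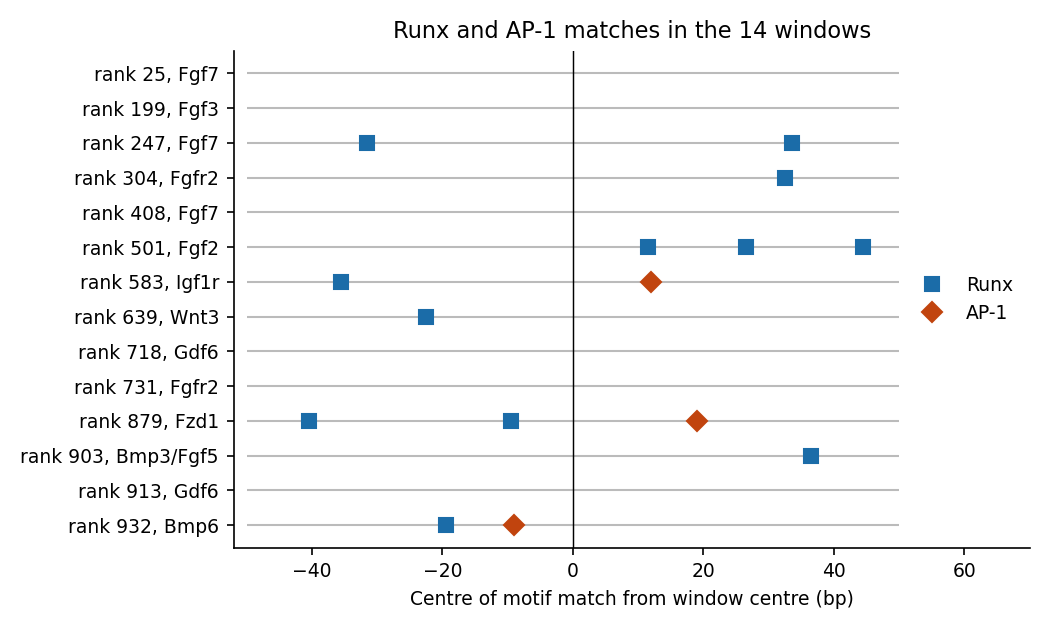
Position of each Runx match (squares) and AP-1 match (diamonds) in bp from the window centre (x axis) in the 14 member windows in order of rank (y axis). There are 8 windows with a Runx match, 3 of which also hold an AP-1 match, and 6 windows with neither.

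Of the 14 windows, 13 were also in a second peak list of the same RUNX3-FLAG library, which names IgG in addition (92.9%, 68.5-98.7%). Among all windows the share was 91.2%. Their ranks differed by 1 to 22 places between the lists, with a median of 10. The window that was absent there was the rank 913 window of Gdf6. The second list added 1 member, Bmp4, a ligand of limb and skeletal development, with a window at rank 653 (chr14:47256235-47256335) that lay 246 kb upstream of its TSS, nearer to Cnih, and held 1 Runx match.

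The deposited tables named only the next gene on each side of a window besides overlapping genes, so that family genes farther along were not listed even where a window was near. Measured to the start of any annotated coding transcript, the nearest window to a gene that was not listed was 34.7 kb from Pdgfrb, the β receptor for PDGF (rank 757). Next were 39.9 kb for Wnt1 and 53.4 kb for Wnt10b (both rank 317), 41.1 kb for Fgf15 and 76.3 kb for Fgf4 (both rank 194, a window that was 99.1 kb from Fgf3), and 42.3 kb for Gdf1 (rank 634). For the FGF receptors other than Fgfr2 it was 69.6 kb for Fgfr3, 182 kb for Fgfr4 and 222 kb for Fgfr1. Several ligands known for cartilage had no window near: the distance was 865 kb for Bmp2, 1535 kb for Gdf5 and 3222 kb for Igf1. The farthest on an autosome was Pdgfd, at 14397 kb.

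By family, the 27 Wnt and frizzled genes without a listed window included Wnt5a (571 kb), Wnt5b (820 kb), Wnt7b (508 kb), Wnt11 (522 kb) and Wnt16 (7060 kb). The 21 BMP family genes without one included Bmp5 (538 kb), Bmp7 (512 kb) and the receptor Bmpr1a (1213 kb), and the 21 FGF family genes included Fgf8 (561 kb), Fgf18 (1891 kb), Fgf9 (2406 kb) and Fgf10 (5162 kb). Of the 10 IGF family genes without one, Igfbp7 was the nearest at 106 kb and Igf2r followed at 147 kb, whereas Igfbp3 was at 1014 kb and Igfbp5 at 751 kb. Over all 96 genes the median was 483 kb, against 664 kb for the other annotated genes. The family medians were 312 kb for FGF, 428 kb for BMP, 476 kb for PDGF, 563 kb for Wnt and 751 kb for IGF. Within 50 kb of a window were 7 of 96 genes, beside 8.29% of all annotated genes, and within 500 kb were 48, beside 43.1%.

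**Figure D4:**
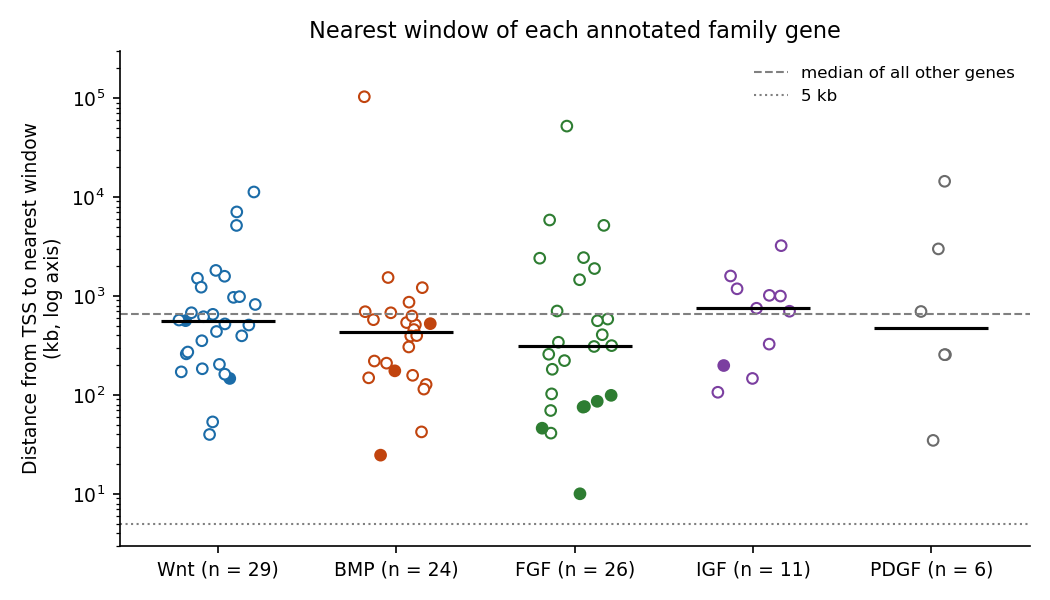
Distance in kb (log axis) from the annotated coding start of each of the 96 family genes to its nearest window, by family. Filled points are genes listed beside a window, black bars are the family medians (312 kb for FGF to 751 kb for IGF), and the dashed line is the median of the other annotated genes, 664 kb.

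Other genes of the same pathways, co-receptors, secreted inhibitors, Smads and feedback genes among them, were counted from lists of 123 genes. Of these, 29 were listed beside a window (23.6%), beside the 7.98% of all annotated genes. The lists were chosen with earlier results of these data known, and the difference was not tested. Of the 122 annotated ones, 12 were within 50 kb of a window, beside 8.29% of all annotated genes. Within 500 kb were 64, beside 43.1%. The counts of genes listed beside a window were 7 of 44 for Wnt, 11 of 31 for BMP, 6 of 22 for FGF, 3 of 14 for IGF and 2 of 12 for PDGF. A gene of these lists had the nearest TSS for windows of 11 genes, of which 8 were on the BMP list. The inhibitory Smads were Smad7, with windows 112 kb (rank 37) and 89.6 kb (rank 166) downstream of its TSS, both with a Runx match, and Smad6, with a window 125 kb downstream (rank 986) that held no match and was absent from the second list. A further window listed beside Smad6, 295 kb downstream (rank 381), held a match, but the TSS of Smad3 was nearer to it. Among the BMP targets, the rank 960 window lay in an exon of Id1, 82 bp from its TSS, with a Runx match, but was also absent from the second list. A window of Id4 (rank 863) lay 23.7 kb upstream and held no match. The secreted BMP antagonist Grem1 had a window 68.8 kb downstream (rank 673), with a match. The type I receptor Acvr1 had one inside the gene, in its 5' untranslated region 4.49 kb downstream of the TSS (rank 770), without a match. The type II receptor Acvr2a had one 294 kb upstream (rank 356) and the BMP co-receptor Rgma one 47.1 kb downstream (rank 456), both with a match. Outside the BMP list, the genes were Dkk3 of the Wnt list, with an intronic window 10.9 kb downstream (rank 739), and the FGF feedback inhibitors Spry4 (83.1 kb downstream, rank 526) and Spred2 (184 kb upstream, rank 972), none with a Runx match.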

How the data were processed

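The authors deposited 2 lists of 1000 peaks of the RUNX3-FLAG library, with rank, position and distance in bp to neighbouring genes. They aligned reads to unmasked mm9 with bowtie and called peaks against input in CisGenome, with filters on P and false discovery rate. The study called more peaks than the 1000 in each list. The control of the list that names IgG is not given in the sources used here. Read counts and peak heights were not analysed here, so the depth and the precision it gives are unknown. Every peak was read as a centre base with 50 bp to either side, counted from 0 with both ends included, and is printed counted from 1. Distances run from the window centre to the TSS of the RefSeq gene.

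Members, gene lists and tests were chosen with earlier results of these data known. All members with a window were named, and other pathway genes where their TSS was the nearest of a window. Annotated genes were the protein-coding genes of GENCODE vM1 (NCBIM37), 22219 of them with a coding start on 21 chromosomes. The distance to the nearest window was measured from the nearest coding transcript start. Sequences and motifs were read from the same build, on both strands, and flanks lay 500 bp to each side. Shares have Wilson 95% intervals, which cover counting error only, and odds ratios have 95% intervals. Shares were compared by two-sided Fisher's exact tests with Benjamini-Hochberg adjustment over 4 shares, and flanks by the exact McNemar test adjusted over both sides. Neighbouring windows are not independent, so p-values may be too small. An overlap of 1 bp made a window shared between the lists. The alternatives were the second list, the best-ranked 33.3%, window edges in place of centres, other links of genes to windows, a narrower motif (TGNGGT with N as C or T), windows widened by 50 bp to each side, and stricter overlaps. Python 3.11.15 with pandas 2.3.3, scipy 1.17.1 and pysam 0.24.0 was used.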

Additional observations from a re-analysis of the deposited data

How the results depend on the processing

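No paired analysis was possible because the groups hold 1 library apiece, and for the same reason no replicate could be left out. Over 29 alternatives of 6 results, 20 left the direction and the call as they were. After adjustment, no share crossed the threshold under any of them. The number of member genes, 11, fell to 3 among the best-ranked 33.3% (Fgf3, Fgf7, Fgfr2), to 3 with only the deposited nearest gene (Fgf2, Fgf5, Fgfr2), to 4 with only the nearest TSS (Bmp6, Fgf2, Fgf7, Fgfr2) and to 2 within 50 kb (Bmp6, Fgf2). The share with the Runx motif turned from below to above that of the other windows with the narrower motif (57.1% against 52.8%), with the wider window (92.9% against 83.3%) and for windows whose nearest TSS is a member's (80.0% against 66.0%). The share in the best-ranked 33.3% also turned, to 40.0% against 33.3% for windows whose nearest TSS is a member's and to 36.4% against 32.5% without windows within 5 kb of a TSS. The last alternative, and leaving out windows absent from the second list, were added after seeing the data. They gave shares inside a gene of 72.7% (adjusted p = 0.117, Fisher's exact test) and 69.2% (adjusted p = 0.0891), and the adjusted p over all alternatives for that share ranged from 0.0891 to 0.739. The cause of these changes was not tested. The unknown depth and the limit of 1000 windows a list mean that a gene without a window is not shown to lack binding.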
